A study of Mus musculus with 6 samples.

Results

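The CREB group of cyclic AMP response factors was examined in left ventricular RNA of mice through 8 genes, chosen by symbol from the 34945 symbols of the count table: the DNA-binding factors Creb1, Crem and Atf1, the CREB-regulated coactivators Crtc1, Crtc2 and Crtc3, and the acetyltransferases Crebbp and Ep300. All 8 were found and all passed the filter on low counts. The samples were 3 wild-type mice and 3 mice with the 4SA-Rad knock-in, an altered allele of Rad, a small GTP-binding protein that holds back L-type calcium channels of the cardiomyocyte. Every mouse is labelled C57BL/6N, and the labels name no treatment, age or sex. Values per mouse are listed in the order of replicates 1, 2 and 3. The title of the series places the comparison within the fight-or-flight response of the heart and the part that calcium entry and phosphorylation of Rad play in it.

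Cyclic AMP made after beta-adrenergic stimulation activates protein kinase A, which phosphorylates CREB and its relatives CREM and ATF1 on DNA at cAMP response elements. Phosphorylated CREB recruits the acetyltransferases CBP (gene Crebbp) and p300 (gene Ep300), while CRTC proteins, held in the cytoplasm when phosphorylated by salt-inducible kinases, enter the nucleus and bind the leucine zipper of CREB. Crem also has an internal, cAMP-inducible promoter that makes ICER, a short repressor that ends the response. Phosphorylation and location decide much of this pathway's activity, and neither is seen in RNA counts.

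Libraries held from 24761124 to 39627397 estimated counts, with the 3 deepest all from knock-in mice. The cardiomyocyte genes Myh6, Tnnt2 and Myl2 were high in all 6 libraries, with Myh6, the main adult myosin heavy chain of the mouse ventricle, at 17421 to 18985 counts-per-million (CPM, scaled by TMM), whereas Bmp10, a defining atrial gene, had 0 to 2 counts. Other atrial genes were present and uneven. Myl7, the atrial myosin light chain, had CPM values of 6.74, 27.8 and 1.17 across the wild-type mice and 28.1, 15.1 and 17.3 across the knock-in mice. Myl4 and Sln varied likewise, from 3.72 to 37.5 CPM and from 0.0614 to 5.90 CPM, and all 3 were lowest in wild-type replicate 3, the library with the highest Crem value. Other libraries went the other way. Wild-type replicate 2 had more Myl7 than wild-type replicate 1 and also more Crem (4.71 against 3.94 CPM). Among knock-in mice replicate 1 was highest in both (Crem 3.91 CPM). The part of atrial tissue in the values of the 8 members was not tested. Rrad, the altered gene, had CPM values of 44.7, 30.0 and 32.2 across the wild-type mice and 27.0, 56.8 and 42.3 across the knock-in mice and did not pass the test, and gene counts do not show which allele a mouse carries. Nnt, a gene known to differ between C57BL/6 substrains, ranged from 262 to 282 CPM among wild-type mice and from 596 to 730 CPM among knock-in mice. Of 5 genes on a substrain list, Nnt among them, 2 passed as higher, 1 passed as lower and 2 did not pass. That is 60.0%, beside 9.01% of all genes tested. These genes differed although all 6 mice carry the label C57BL/6N. Substrain and the Rad allele cannot be told apart in these mice.

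None of the 8 genes passed edgeR's quasi-likelihood test at an adjusted p of 0.05, where 9.01% of the 13485 genes tested passed. At an unadjusted p below 0.05 there were 2, Crem and Crtc1, beside 25.2% of all genes. DESeq2 called 1, Crem, and limma-voom called none. The lowest level relative to wild-type was that of Crem, whose knock-in mean was 0.64 of the wild-type mean in the fit, and Crtc1 was the furthest above wild-type, at 1.16-fold. Fold changes of the other 6 lay between 0.91 and 1.02. CPM ranges of the genotypes did not overlap for 4 of the 8 (Crem, Crtc1, Crtc2 and Ep300), a share to be read against 29.4% of all genes tested. The median log2 fold change was -0.09 over the 8 genes and 0.00 over all genes tested.

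**Figure D1:**
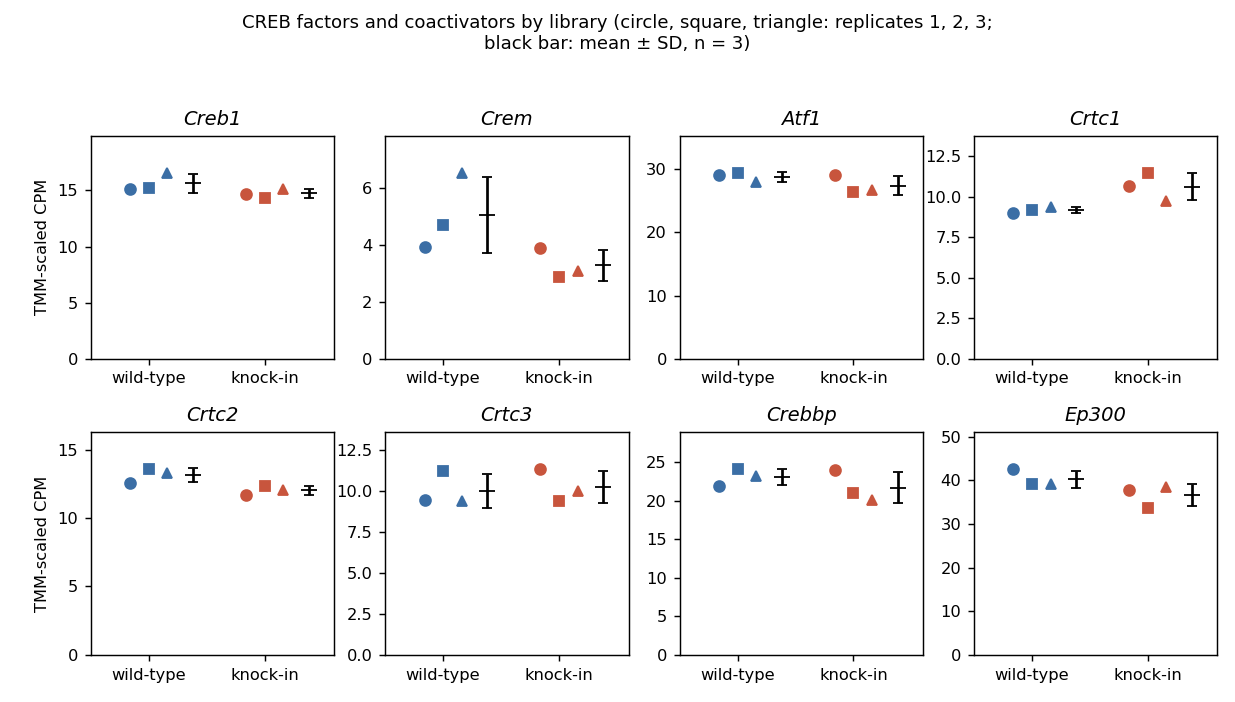
TMM-scaled counts-per-million (y axis, from 0) of the 8 genes in each library, wild-type in blue and knock-in in red, with the mean ± SD of 3 mice as black bars. Crem in knock-in replicate 1, at 3.91 CPM, sits just under the lowest wild-type value of 3.94 CPM, and the groups also do not overlap for Crtc1, Crtc2 and Ep300.

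Crem, on chromosome 18, encodes both activators and repressors from the same locus, and GENCODE M21 lists 39 transcripts for it. It had CPM values of 3.94, 4.71 and 6.54 across the wild-type mice and 3.91, 2.88 and 3.07 across the knock-in mice, from 100 to 213 counts per library. The highest value was that of wild-type replicate 3, and the groups did not overlap, although knock-in replicate 1 lay just under wild-type replicate 1. Means were 5.06 ± 1.34 CPM for wild-type and 3.29 ± 0.547 CPM for knock-in (SD, n = 3 each). The log2 fold change, knock-in minus wild-type, was -0.63 ± 0.19 (SE), with a 95% interval from -1.06 to -0.21 and an edgeR adjusted p of 0.0681. With single libraries left out the log2 fold change ran from -0.78 to -0.41, the smallest difference coming without wild-type replicate 3 (edgeR adjusted p = 0.224). Crem passed without wild-type replicate 1 (0.0437) and without knock-in replicate 1 (0.0384), as well as with DESeq2 (adjusted p = 0.0362), with library size alone as the scaling (0.0243) and with no filter on low counts (0.015). The table has 1 value per symbol, and which Crem transcripts enter it is not given in any source used, so ICER and the full-length factors cannot be told apart.

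Creb1, the founding member of the family, is at chr1:64532645-64604548 (plus strand) of GRCm38. Here the gene had CPM values of 15.1, 15.2 and 16.6 across the wild-type mice and 14.7, 14.3 and 15.1 across the knock-in mice. Knock-in replicate 3 overlapped the lower wild-type values. The log2 fold change was -0.09 ± 0.06 (edgeR adjusted p = 0.459), and its 95% interval, from -0.23 to 0.06, spans fold changes of 0.854 to 1.04.

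Atf1, a close relative of Creb1 with the same kinase-inducible and leucine zipper regions, is at chr15:100227819-100261244 (plus strand). Its transcripts had CPM values of 29.1, 29.4 and 28.0 across the wild-type mice and 29.2, 26.4 and 26.7 across the knock-in mice, so that knock-in replicate 1 lay within the wild-type range. Its log2 fold change of -0.07 ± 0.06 did not pass (edgeR adjusted p = 0.501), with a 95% interval from -0.21 to 0.06.

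Set against Creb1 within each library, a measure that no scaling between libraries touches, Crem had 0.260, 0.310 and 0.395 counts per Creb1 count in wild-type and 0.266, 0.201 and 0.203 in knock-in replicates 1 to 3. Here knock-in replicate 1 lay above wild-type replicate 1, so the groups overlapped. The mean log2 ratio differed by -0.52 between genotypes (exact permutation test over 20 arrangements, two-sided p = 0.2; 0.1 is the smallest p that 3 against 3 mice allow). Leaving out single libraries moved that difference between -0.66 and -0.36.

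**Figure D2:**
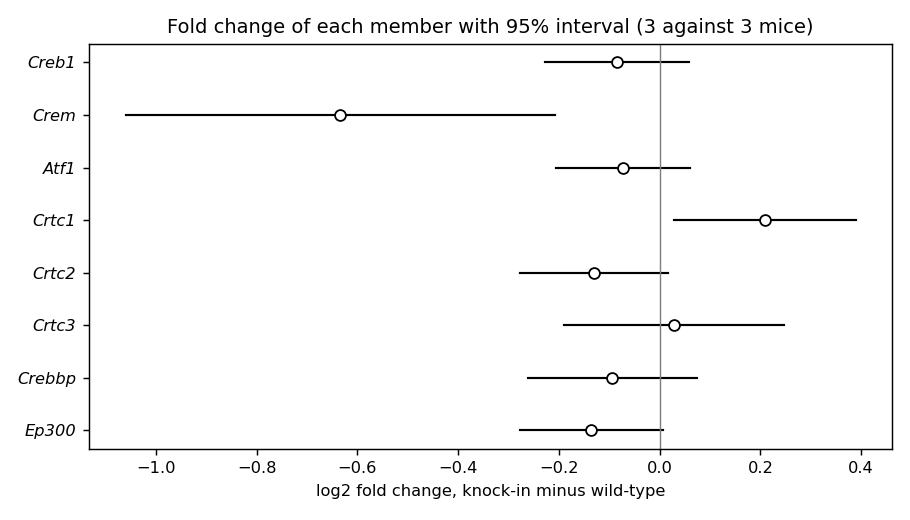
Log2 fold change, knock-in minus wild-type (x axis), of the 8 genes from edgeR, with lines for the 95% interval (3 against 3 mice). The intervals of Crem (-1.06 to -0.21) and Crtc1 (0.03 to 0.39) do not reach 0 before adjustment for the number of genes tested, and those of the other 6 include 0.

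Among the coactivators that salt-inducible kinases hold outside the nucleus, Crtc1, at chr8:70382355-70439579 (minus strand), was furthest above its wild-type level. Its counts gave CPM values of 9.0, 9.18 and 9.37 across the wild-type mice and 10.7, 11.5 and 9.77 across the knock-in mice. All 3 knock-in values exceeded the narrow wild-type range. The log2 fold change was 0.21 ± 0.08 (edgeR adjusted p = 0.14), with a 95% interval from 0.03 to 0.39, and the adjusted p stayed between 0.112 and 0.399 over the 15 other settings.

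Crtc2, the form best known as a fasting switch in mouse liver, is at chr3:90254163-90264125 (plus strand). Here the gene had CPM values of 12.6, 13.6 and 13.3 across the wild-type mice and 11.7, 12.3 and 12.05 across the knock-in mice. The groups did not overlap, but the log2 fold change of -0.13 ± 0.07 did not pass (edgeR adjusted p = 0.257; 95% interval -0.28 to 0.02). Crtc3, at chr7:80586627-80688877 (minus strand), had CPM values of 9.43, 11.2 and 9.37 across the wild-type mice and 11.3, 9.39 and 9.97 across the knock-in mice. Its groups overlapped, at a log2 fold change of 0.03 ± 0.10 (edgeR adjusted p = 0.89) whose sign changed with library size alone and in 3 of the 6 fits with a library left out (both wild-type 1 and 3, and knock-in 1).

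Within libraries Crtc1 had 0.409, 0.371 and 0.413 counts for each count of Crtc2 and Crtc3 together in wild-type, and 0.464, 0.528 and 0.444 in knock-in replicates 1 to 3. Every knock-in library was above every wild-type library. The mean log2 ratio was 0.26 higher in knock-in (exact permutation test, two-sided p = 0.1, the smallest this design allows), and between 0.19 and 0.32 higher with single libraries left out.

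Crebbp and Ep300 encode CBP and p300, paralogous acetyltransferases that serve many transcription factors besides CREB. Crebbp, at chr16:4081328-4213997 (minus strand), had CPM values of 21.9, 24.0 and 23.2 across the wild-type mice and 23.9, 20.9 and 20.1 across the knock-in mice. Knock-in replicate 1 lay inside the wild-type range, and the log2 fold change was -0.09 ± 0.08 (edgeR adjusted p = 0.49; 95% interval -0.26 to 0.07). Ep300, at chr15:81585351-81652077 (plus strand), had CPM values of 42.5, 39.1 and 39.2 across the wild-type mice and 37.7, 33.7 and 38.4 across the knock-in mice. Its ranges did not overlap. The log2 fold change of -0.14 ± 0.06 did not pass (edgeR adjusted p = 0.22; 95% interval -0.28 to 0.01). The ratio of Crebbp to Ep300 counts within libraries ran from 0.516 to 0.616 in wild-type and from 0.524 to 0.635 in knock-in (exact permutation test on the log2 ratio, two-sided p = 0.5).

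Levels can be compared between genes only per length, here as CPM per kilobase of merged exons in GENCODE M21. On this scale Atf1 was the most abundant of the 8, at 8.62 to 9.61 over the 6 libraries, above all others. Crtc2 (2.86 to 3.31) and Ep300 (2.36 to 2.98) followed with overlapping ranges, and Crebbp (1.48 to 1.78) came below both. Creb1 (1.04 to 1.205) and Crtc3 (0.951 to 1.15) overlapped each other, and the wide range of Crem (0.489 to 1.11) reached into both. Crtc1 (0.805 to 1.03) overlapped Crtc3 and Crem and lay under Creb1. Per kilobase of the longest coding transcript instead, Atf1 remained highest (wild-type mean 12.2), followed by Crtc2 (4.79), Ep300 (4.21) and Crebbp (2.13), while Creb1 (1.87), Crtc3 (1.95), Crem (1.73) and Crtc1 (1.62) lay close together. Annotated length is not the length of the transcripts made in ventricle, so these levels are approximate.

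Of the summed merged-exon level of the 3 DNA-binding factors, Atf1 made up 82.5% ± 2.42 in wild-type and 84.6% ± 0.293 in knock-in (SD, n = 3 each). Crem made up 7.51% ± 1.96 and 5.25% ± 0.569, and Creb1 9.96% ± 0.496 and 10.1% ± 0.584. Among the 3 CRTC genes, Crtc2 held 63.6% ± 0.809 in wild-type and 59.6% ± 1.78 in knock-in, and Crtc1 16.3% ± 0.608 and 19.3% ± 1.23. All these shares depend on the length used, and the SD covers only the spread between mice. With the longest coding transcript (wild-type means of 12.2 for Atf1, 1.87 for Creb1 and 1.73 for Crem) the share of Atf1 would be smaller and that of Crem larger.

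The genes whose mean-centred log2-CPM over the 6 libraries lay nearest to that of Crem, by root mean square difference, were Fam117b (0.0916), Rps6kl1 (0.0928), Tes (0.0959), Bcl2l1 (0.102) and Fcgr3 (0.104). In each of these 5, wild-type replicate 3 was the highest library and knock-in replicates 2 and 3 were the lowest, an order that Crem shares. These genes were chosen for this profile, so their order and direction follow from the choice and their values are a description. Bcl2l1, encoding the survival factor Bcl-xL, had mean levels of 22.3 ± 3.04 CPM for wild-type and 15.0 ± 2.35 CPM for knock-in (SD, n = 3 each), and Fam117b of 16.1 ± 2.80 and 10.8 ± 1.69 CPM. Log2 differences of the 5 ran from -0.74 in Rps6kl1 to -0.51 in Fcgr3, an Fc receptor of leukocytes.

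Around the 8 genes, 6 lists of pathway genes held 125 genes, of which 123 were in the table and 113 were tested, and of these 5 rose and 19 fell (21.2% called and 16.8% lower, beside 9.01% and 5.01% of all genes tested). Of the 19 that fell, 14 are on the list of described CREB targets, drawn up with earlier results of these libraries known. The pooled shares therefore rest largely on that list. Among 13 tested bZIP factors that share the CREB or ATF name or bind its element, none rose, 2 fell (15.4%) and 11 did not pass. Their median log2 fold change was -0.09. Creb5, a factor that can pair with Jun and CREB-like partners, fell from a wild-type mean of 7.37 ± 1.44 to a knock-in mean of 4.68 ± 0.291 CPM, a log2 fold change of -0.66 ± 0.14 (edgeR adjusted p = 0.019), and Atf5, a stress-response factor, by 0.32 ± 0.07 (0.022). When each library was left out in turn, Creb5 kept its call in 4 of 6 fits and Atf5 in 2.

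Genes listed as kinases of the CREB activation site moved both ways, with 4 of 18 tested genes higher, 3 lower and 11 not passing. Their median log2 fold change was -0.02. Not every listed gene acts on that site directly, since Camkk1 and Camkk2 act on other kinases. The 7 called are 38.9% of the list, beside 9.01% of all genes tested, but the count depended on single libraries. It was 1 when knock-in replicate 3 was left out, 2 when wild-type replicate 3 was, 3 for knock-in replicate 2 and 4 for wild-type replicate 1. Calls over all genes tested also dropped in these fits, to 2.48%, 3.53%, 4.92% and 5.65% in the same order. Mapkapk2, a stress kinase downstream of p38, fell from a wild-type mean of 147 ± 4.75 to a knock-in mean of 115 ± 3.79 CPM (-0.36 ± 0.05, edgeR adjusted p = 0.00185), and Rps6ka2, a ribosomal S6 kinase, by 0.40 ± 0.07. The calcium- and calmodulin-dependent kinase genes Camk2a (0.27 ± 0.06) and Camk2g (0.33 ± 0.08) rose on the log2 scale, although neither passed with library size alone (edgeR adjusted p = 0.168 and 0.129). With each library left out in turn, Camk2a kept its call in 3 of 6 fits and Camk2g in 2. Prkaca, the main catalytic subunit of protein kinase A, rose from 124 ± 1.54 to 139 ± 1.70 CPM (0.16 ± 0.04, edgeR adjusted p = 0.0313). Camk2b was also called higher (0.42 ± 0.10) and Akt1 lower (-0.23 ± 0.05). Prkaca, Camk2b and Akt1 all lost their call without knock-in replicate 3 and without wild-type replicate 3.

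Of 11 tested phosphatases and inhibitors, 1 fell, Dusp1, and 10 did not pass (median log2 fold change -0.03). That is 9.09% called, beside 9.01% of all genes tested. None of 20 tested regulators of CRTC location passed the edgeR test, where 7 had an unadjusted p below 0.05 (25.2% of all genes tested did), DESeq2 called 1 and limma-voom called 1, at a median log2 fold change of -0.06. Sik1, a cAMP-inducible salt-inducible kinase that phosphorylates CRTC proteins, came nearest, with CPM values of 69.5, 65.1 and 53.4 across the wild-type mice and 45.5, 12.7 and 26.6 across the knock-in mice (log2 fold change -1.15 ± 0.32, edgeR adjusted p = 0.0528). Its groups did not overlap, and the adjusted p ran from 0.000924 to 0.268 over the other settings. Sik1 passed with limma-voom (adjusted p = 0.0284) but not with DESeq2 (adjusted p = 0.152), so the gene DESeq2 called was another. Of 18 other partners, 1 rose (5.56%, beside 9.01% of all genes tested called) and 17 did not pass (median 0.06). It was the LIM protein gene Fhl3 (0.57 ± 0.14, edgeR adjusted p = 0.0316). Fhl3 was called in 2 of 6 fits with each library left out in turn. It passed neither with DESeq2 (adjusted p = 0.0754) nor with library size alone (edgeR adjusted p = 0.0631).

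**Figure D3:**
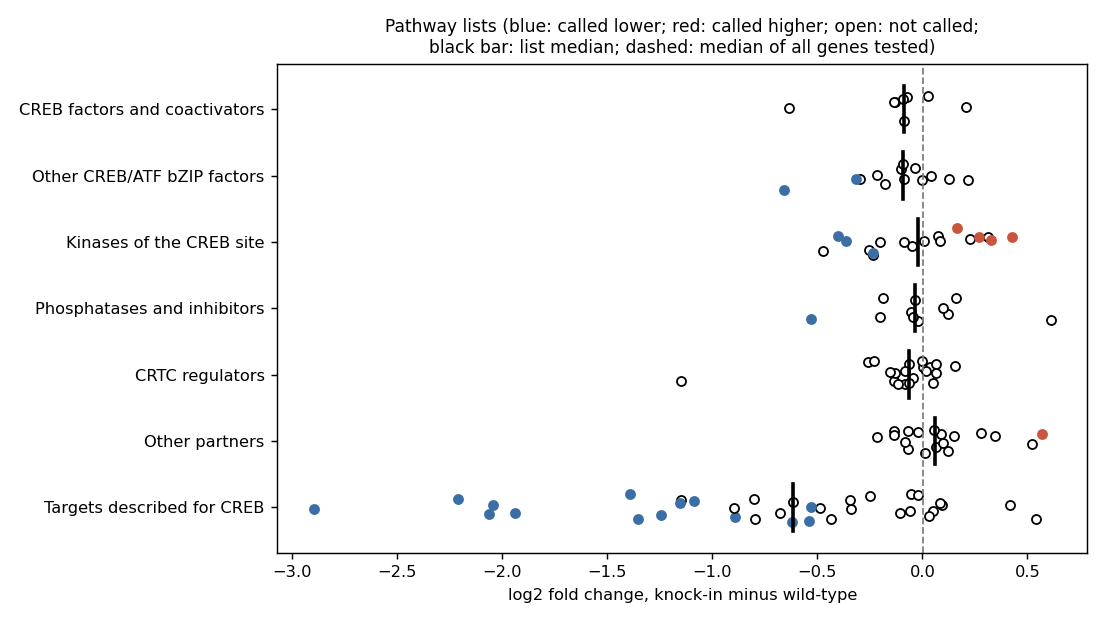
Log2 fold change, knock-in minus wild-type (x axis), of each tested gene in the list of 8 members and 6 pathway lists (rows); filled points passed an adjusted p of 0.05, black bars are list medians and the dashed line is the median of all genes tested. The list of described CREB targets lies furthest from that line, with a median of -0.62, while the 8 members have a median of -0.09.

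Genes described as CREB targets included many with lower levels in knock-in. Of 35 tested, 14 fell (40.0%, where 5.01% of all genes tested fell), none rose and 21 did not pass, and 29 had log2 fold changes below 0, at a median of -0.62, beside 0.00 over all genes tested. With robust dispersions 6 fell, 5 of them among the 14, and without knock-in replicate 3 there were 8, all among the 14. The list overlaps another kind of response: 10 of the 35 are also on the immediate early list used here. Of these 10, 8 fell, against 6 of the other 25. That immediate early list is not complete, so some of the other 25 may also be immediate early genes, such as Ptgs2 and Cebpb, which fell. The list of targets was drawn up with earlier results of these libraries known, so it is not independent evidence of a direction.

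The orphan nuclear receptor gene Nr4a1 had CPM values of 66.0, 62.4 and 45.2 across the wild-type mice and 20.001, 7.69 and 14.5 across the knock-in mice (log2 fold change -2.04 ± 0.26, edgeR adjusted p = 0.0019, rising to 0.0578 under robust dispersions). Its relative Nr4a2 fell from a wild-type mean of 4.04 ± 0.0994 to a knock-in mean of 1.58 ± 0.356 CPM (-1.35 ± 0.17, edgeR adjusted p = 0.00188). Irs2, the insulin receptor substrate, fell by 1.94 ± 0.26 and Klf4 by 1.09 ± 0.16 on the log2 scale, and neither passed with robust dispersions (edgeR adjusted p = 0.0647 and 0.0649). Dusp1, which dephosphorylates MAP kinases, fell from a wild-type mean of 36.2 ± 4.44 to a knock-in mean of 25.0 ± 2.76 CPM (-0.53 ± 0.10, edgeR adjusted p = 0.0111). The targets Ppargc1a (-0.43 ± 0.14, edgeR adjusted p = 0.0811), Per1 (-0.49 ± 0.20, 0.166) and Pde4d (0.09 ± 0.10, 0.63) did not pass.

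**Figure D4:**
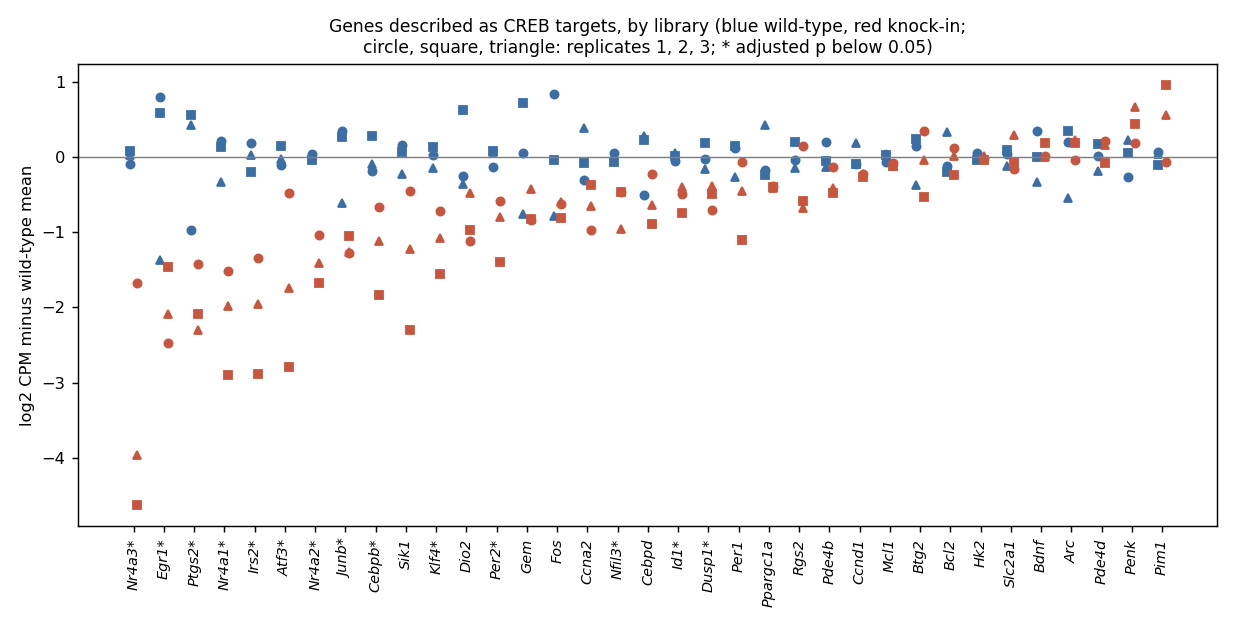
Log2 CPM of each tested CREB target gene (x axis, ordered by fold change) in each library, minus the wild-type mean of that gene; wild-type is blue, knock-in red, and circles, squares and triangles are replicates 1, 2 and 3. In Nr4a3, Irs2, Atf3 and Sik1 knock-in replicate 1 (red circle) lies closest to wild-type among the knock-in libraries. In other targets, such as Egr1 and Dusp1, it lies furthest from wild-type.

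Knock-in replicate 1 also stood apart from the other knock-in libraries in Crem and in heat shock genes. The summed level of 12 heat shock genes was 2905 to 3057 CPM in wild-type, 2877 CPM in knock-in replicate 1 and as low as 1985 CPM in another knock-in library; 3 of the 12 fell (25.0%) and 9 did not pass. Of 22 immediate early genes 14 fell (63.6%), none rose, and their sum was 359 to 508 CPM among wild-type and 203 to 293 CPM among knock-in mice. Of all genes tested 5.01% fell and 4.00% rose. The part of either pattern in the Crem and target values was not tested. Without knock-in replicate 1, the targets that fell numbered 19 and 2 rose, and with no filter on low counts 20 fell and 1 rose.

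Promoter windows from RefSeq (GRCm38.p6, 250 bases before to 50 after a start) were held for 6 of the 8 members, all but Crem and Crtc2, and searched on both strands for the cAMP response element TGACGTCA and its core TGACG, which every full site also contains and which reads CGTCA on the other strand. No member window held the full site, and 1 of 6, that of Atf1, held the core motif. Among the tested targets 25 had a window: 21 held a core motif, 10 of the 11 that fell and 11 of the 14 that did not pass, and 3 held the full site. The list was drawn up of genes described with such elements, so these shares restate that choice. Over all windows 20.8% held the core motif and 1.79% the full site. In tested genes with a window the shares were 34.4% and 3.37%.

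A site before the start is shown for Atf1 and for each of Nr4a1, Nr4a2, Klf4 and Dusp1, the targets described above by their values that fell and had a site. It is the full element in Dusp1 and otherwise the core motif nearest to the start among those found before it, with the site in capitals and 11 bases on either side, each read 5′ to 3′ on the strand of its gene. They show how the full element in Dusp1 differs from the core motifs elsewhere. The window of Irs2 held neither.
Atf1 (chr15:100227758-100227784, plus strand): tgaccacgcggTGACGcagcacgccgg
Nr4a1 (chr15:101266795-101266821, plus strand): ccctctccatgCGTCAcggagcgctta
Nr4a2 (chr2:57124099-57124125, minus strand): gacggggccgcTGACGcgcttggccgc
Klf4 (chr4:55532692-55532718, minus strand): tgcctggctggCGTCAcggcctggccc
Dusp1 (chr17:26508597-26508626, minus strand): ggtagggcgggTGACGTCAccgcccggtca
The first base of the site lay 90 bases before the start in Atf1, 40 in Nr4a1, 111 in Nr4a2, 232 in Klf4 and 143 in Dusp1. A match is a description of letters and not a site of binding.

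Of 351 tested genes whose window held TGACGTCA, 9 rose, 24 fell and 318 did not pass, and the median log2 fold change was -0.02. Of 10418 tested genes with any window, 397 rose and 510 fell (4.90%, beside 6.84% of those with the full element), at a median of 0.00. Of 3583 with a core motif 112 rose and 187 fell (5.22%, beside the 4.90% of all with a window). Of 6835 whose window held neither motif, 4.73% fell. Counting both directions, 9.40% were called with the full element and 8.34% with the core motif. The shares were 8.90% with neither motif and 8.71% over all with a window.

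Levels of other cell types are given beside these results, since in bulk tissue fewer cells of a type and less RNA per cell cannot be told apart. Of all genes tested 5.01% fell, the share beside which these counts stand. Of 14 macrophage markers 8 fell (57.1%) and 1 rose, with a summed level of 163 to 171 CPM among wild-type and 117 to 143 CPM among knock-in mice. Of 14 endothelial markers 6 fell (42.9%, 1060 to 1089 and 943 to 1014 CPM), and of 14 fibroblast markers 4 fell (28.6%, 1106 to 1358 and 1073 to 1220 CPM). Of 14 cardiomyocyte markers 2 fell (14.3%, 53172 to 55755 and 53498 to 54676 CPM). Of 11 smooth muscle and pericyte markers 1 rose and 1 fell (861 to 905 and 884 to 925 CPM), and of 10 tested atrial markers 1 rose and 1 fell (401 to 525 and 401 to 491 CPM). The atrial sum does not show the uneven levels of Myl7, Myl4 and Sln, which reached at most 28.1, 37.5 and 5.90 CPM. The 6 tested erythroid markers did not pass with edgeR, and 0 had an unadjusted p below 0.05 (585 to 2226 and 602 to 5300 CPM, highest in knock-in replicate 1), and 1 of 6 neuronal and glial markers rose (8.65 to 12.1 and 11.4 to 12.9 CPM), where Th had 0 to 2 counts. The part of these levels in the values of the 8 members was not tested.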

How the data were processed

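RNA of left ventricular myocardium from 6 mice was isolated on columns with DNase digestion and made into stranded Illumina TruSeq libraries, per the labels' protocols. The authors deposited whole-number counts per gene symbol, treated here as estimated counts because kallisto 0.44.0 is listed, beside bcl2fastq 2.19 and GRCm38, per the submitters' processing notes. No source used here gives the annotation, the use of strand or the summing of transcripts, so paralogous and overlapping genes are uncertain.

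Tests used edgeR 4.0.16 (R 4.3.3): filterByExpr on genotype (13485 genes, 99.96% of counts), TMM scaling and the quasi-likelihood F test, two-sided, with Benjamini-Hochberg adjustment over all genes tested. Genes were called at an adjusted p below 0.05. SE is the log2 fold change divided by the root of F, and 95% intervals use the degrees of freedom of the fit. Log2-CPM for profile distances had a prior count of 2. No pair of libraries within a genotype agreed within sampling noise (chi-square per degree of freedom 8.40 or more).

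Named genes were the 8 members, from each pathway list up to 4 called genes by smallest p or else the gene with the smallest p, the 5 genes nearest to Crem in profile, Rrad and Nnt. Others were named after their values were seen. The members and lists were chosen with earlier results of these data known. Alternatives were DESeq2 1.42.0, limma-voom (limma 3.58.1), other scalings and filters, robust dispersions, mitochondrial transcripts left out, and each library left out.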

Additional observations from a re-analysis of the deposited data

How the results depend on the processing

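All 8 members stayed uncalled with limma-voom, median-of-ratios or upper-quartile factors, without mitochondrial transcripts, with a filter of 50 counts in 3 libraries and with robust dispersions, while 1 member, Crem, was called with DESeq2, library size alone and no filter. With single libraries left out 0 to 1 was called, and its log2 fold change ranged from -0.78 to -0.41. The sign of Crtc3 reversed with library size alone (-0.0556) and, among fits with a library left out (-0.0472 to 0.119), when the missing mouse was wild-type 1 (-0.01), wild-type 3 (-0.02) or knock-in 1 (-0.0472), and that of Rrad without knock-in replicate 2 (-0.0317, in a range up to 0.4819). The difference in the Crebbp to Ep300 log2 ratio, 0.04, ranged from -0.0324 to 0.1309 with single libraries left out, which reversed it without wild-type replicate 1 (-0.0324) and knock-in replicate 1 (-0.01). Genes called numbered 338 to 1378 with a library left out, and 1142 to 1591 otherwise. CREB targets that fell numbered 8 to 19 with a library left out and 6 with robust dispersions, where the cause was not tested. Calls over the 6 pathway lists, 24 in all, were 9 to 38 with a library left out and 37 with no filter, in which 20092 genes were tested. Called genes with the element in their window, 33, were 6 to 35 with a library left out and 299 for the core TGACG, which more windows hold. Library size alone shifted log2 fold changes by a median of -0.08 and gave 227 higher and 1177 lower genes, against 540 and 675. No paired analysis was possible because the labels carry no replicate numbers shared between the genotypes. Crem rested on 100 to 213 counts per library, which limits its precision.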
